A study of Mus musculus with 18 samples.

Results

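The genes described here are 45 mouse genes of the interferon response and of DNA sensing, out of 78239 genes in the count tables. They were chosen by name, and all 45 were found under their annotated symbols. RNA sequencing was performed in 2 experiments, both of which compared a normoxia-stable form of the hypoxia-inducible factor HIF1A (*nsHif1a*) with enhanced green fluorescent protein (eGFP). In the first, 5 retinas of mice that had received AAV::*nsHif1a* and 5 that had received AAV::eGFP were analyzed at 3 weeks post injection (wpi). In this adeno-associated virus (AAV), the mouse opsin promoter restricts expression to rods. The virus was injected under the retina at postnatal day 29 to 32, and it transduces a part of the retina. The labels give the strain as C57BL/6J, whereas the methods of the study give wild-type 129S6. In the other experiment, 661W cells were transfected with a plasmid carrying *nsHif1a* or eGFP behind the CMV promoter and were collected after 20 h, with 4 libraries per plasmid. 661W is a mouse line derived from a retinal tumor and is used as a photoreceptor-like line. Control retinas and control cells had thus received a virus or a plasmid as well, and untreated retinas or cells were not analyzed here.

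Interferons are cytokines that cells release when receptors in the cytosol or endosome detect viral RNA or misplaced DNA. cGAS binds DNA in the cytosol and makes a cyclic dinucleotide that activates STING, while RIG-I and MDA5 bind RNA. Both routes lead to transcription of interferon β. Type I interferons bind the receptor formed by IFNAR1 and IFNAR2, and a complex that contains STAT2 and IRF9 then binds the interferon-stimulated response element (ISRE). Interferon γ acts mainly through the GAS element. In the retina, microglia and Müller glia are known to respond to interferon.

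Promoter sequences are described first, since the ISRE is the sequence through which most of them are known to respond. RefSeq promoter windows (GRCm38.p6), which run from 250 bases before to 50 bases after a start site, were matched by symbol for 34 of the 45 genes. The ISRE core, searched on both strands as GAAA, any 2 bases and GAAA, was found in 16 of these 34 genes (47.1%), against 3.99% of the 27025 genes with a window. The palindromic GAS core TTCNNNGAA was found in 11 of 34 (32.4%), against 9.55%. The core of the HIF binding site, written as ACGTG or GCGTG on either strand, was found in 16 of 34 (47.1%), against 46.7% of all genes. These are matches of letters and no evidence of binding. Stretches around an ISRE match of 7 genes are given from GRCm39, 5′ to 3′ along the strand of the gene. Bases of matches that lie wholly within the stretch are in capitals. The *Ifit1* stretch begins inside a further ISRE match, which is left in lower case. *Ifit3*, *Ifit3b* and *Trim30a* had a further ISRE match in their windows, outside the stretch. These genes are examples and not the strongest responders. *Ifit1* and *Isg15* were not called over all cell libraries, and none was called over all retinas. *Ifit2*, with one of the largest effects in the cells, had a GAS match and no ISRE match in its window. A stretch that begins its capitals with TTTC holds the motif on the opposite strand.
Ifit1, chr19:34618189-34618228, plus strand: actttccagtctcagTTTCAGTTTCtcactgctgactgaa
Ifit3, chr19:34560792-34560831, plus strand: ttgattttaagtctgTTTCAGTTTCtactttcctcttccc
Ifit3b, chr19:34585188-34585227, plus strand: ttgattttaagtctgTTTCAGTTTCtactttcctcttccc
Isg15, chr4:156285317-156285356, minus strand: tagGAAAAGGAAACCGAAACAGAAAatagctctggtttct
Stat2, chr10:128106130-128106169, plus strand: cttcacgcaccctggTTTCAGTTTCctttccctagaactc
Rsad2, chr12:26506547-26506586, minus strand: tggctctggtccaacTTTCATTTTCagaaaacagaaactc
Trim30a, chr7:104114412-104114451, minus strand: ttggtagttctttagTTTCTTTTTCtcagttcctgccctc
None of these 7 stretches overlapped an annotated exon. *Ifit3* and *Ifit3b*, which lie in one cluster with *Ifit1* and *Ifit2* on chromosome 19, had the same 40 bases here, and *Isg15* held 3 overlapping matches. For comparison, the GAS match of the transcription factor gene *Irf1* and one of the GAS matches of the GTPase gene *Gbp7* are shown with 10 flanking bases.
Irf1, chr11:53660741-53660769, plus strand: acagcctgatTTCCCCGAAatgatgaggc
Gbp7, chr3:142236000-142236028, plus strand: aagcagaagcTTCTCAGAAagtcagcaca
Both of these stretches overlapped an annotated exon. *Irf1* had a GAS match and no ISRE match in its window, whereas *Gbp7* had both.

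The libraries held 12898220 to 17809585 counts, so that 3 counts corresponded to 0.168 to 0.233 CPM, that is, counts scaled to the library size. CPM values were scaled by the trimmed mean of M-values (TMM) within each experiment. *Hif1a*, the gene delivered, was measured at 152, 150.0, 161 and 164 CPM with eGFP and 1222, 1242, 1954 and 1825 CPM with *nsHif1a* in the cells, whereas in the retina it lay at 638 to 698 CPM with AAV::eGFP and at 642 to 729 CPM with AAV::*nsHif1a*, and the groups overlapped. *Hif1a* thus separated the plasmids but not the vectors. The HIF target *Egln1* did separate the retinas, with 96.3 to 116 CPM against 184 to 351 CPM (log2FC 1.30 ± 0.12, adjusted *p* = 0.00018 from limma). Cone markers summed to 2.10 to 4.71 CPM in the 661W libraries and 6 of the 8 stayed under 10 counts in each group, so the line was not marked as a cone by these genes. A pair of features of the libraries bears on the results. In the cells, replicates 1 and 2 of a plasmid, and replicates 3 and 4, resembled each other closely. Within these pairs, the median squared difference between libraries was 1.47 to 1.62 times that expected from sampling noise. Between the pairs it was 3.83 to 9.10 times that expected, and results are therefore also given for each set. In the retina, AAV::eGFP libraries 3, 4 and 5 held 1 to 3 counts of *Xist*, the RNA of the inactive X chromosome, while AAV::eGFP libraries 1 and 2 and all 5 AAV::*nsHif1a* libraries held 19492 to 28595.

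The 45 genes were expressed at very different levels in the 2 experiments. Their summed level was 13983 to 15213 CPM in 661W cells with eGFP and 376 to 1903 CPM in retinas with AAV::eGFP. Per length, the highest mean levels in the control cells were those of *Isg15* (1020 RPKM), *Bst2* (567 RPKM) and *Ifitm3* (545 RPKM). *Isg15* encodes a ubiquitin-like protein, *Bst2* the protein tetherin that retains budding virus, and *Ifitm3* a membrane protein that blocks viral fusion. In control retinas the highest means were those of *Ifitm3* (26.2 RPKM), *Ifit3* (20.3 RPKM) and *Adar* (15.4 RPKM), which encodes the editing enzyme ADAR1. The means of *Ifitm3* and *Ifit3* were carried by AAV::eGFP libraries 1 and 2, since *Ifitm3* was at 86.6, 51.2, 9.28, 8.26 and 12.5 CPM and *Ifit3* at 199, 66.8, 9.34, 7.86 and 8.66 CPM in the 5 controls, whereas *Adar* stayed between 113 and 152 CPM. *Cgas* had the lowest mean level of the 45 genes in control retinas (0.0690 RPKM) and the second lowest, after *Trim25*, in control cells (5.58 RPKM). *Trim25*, a ubiquitin ligase gene, had 0 to 6 counts per library in the cells, against 337 to 585 counts in the retina.

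In 661W cells, the differences between *nsHif1a* and eGFP were above 0 for nearly all of these genes. Of the 45 genes 44 were tested, and 11 were upregulated (adjusted *p*-value under 0.05 and log2FC above 0.5, limma with Benjamini-Hochberg adjustment over all genes), where 1.21% of all 15962 genes tested were. None was downregulated at these thresholds in limma, edgeR or DESeq2, and 16 reached an adjusted *p*-value under 0.05 at any fold change. The median log2FC of the 44 genes was 0.46, 42 were above 0, and the 4 *nsHif1a* libraries were above the 4 eGFP libraries for 33, compared with 7.51% of all genes tested. With the replicate number as a block, none of the 44 was called (0.551% of all genes were upregulated), although the median log2FC was 0.42 and 40 had an unadjusted *p*-value under 0.05. The share of all genes with such a *p*-value was not determined. Without the block, edgeR called 8 of the 44 upregulated (154 of all genes) and DESeq2 19 (328 of all genes), beside 193 of all genes with limma. The count also turned on single libraries. It was 0 without eGFP library 1 and also 0 without eGFP library 2, 5 and 7 without *nsHif1a* library 1 or 2, 9 and 8 without eGFP library 3 or 4, and 30 and 31 without *nsHif1a* library 3 or 4. The calls over all genes moved as well, to 82 and 87 upregulated without eGFP library 1 or 2 and to 1201 and 1194 without *nsHif1a* library 3 or 4. The upregulated genes were *Ifit3*, *Ifit3b*, *Usp18*, *Mx1*, *Mx2*, *Stat2*, *Rsad2*, *Cmpk2*, *Parp14*, *Dtx3l* and *Trim30a*. With the block their adjusted *p*-values were 0.070 to 0.13 (limma).

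**Figure D1:**
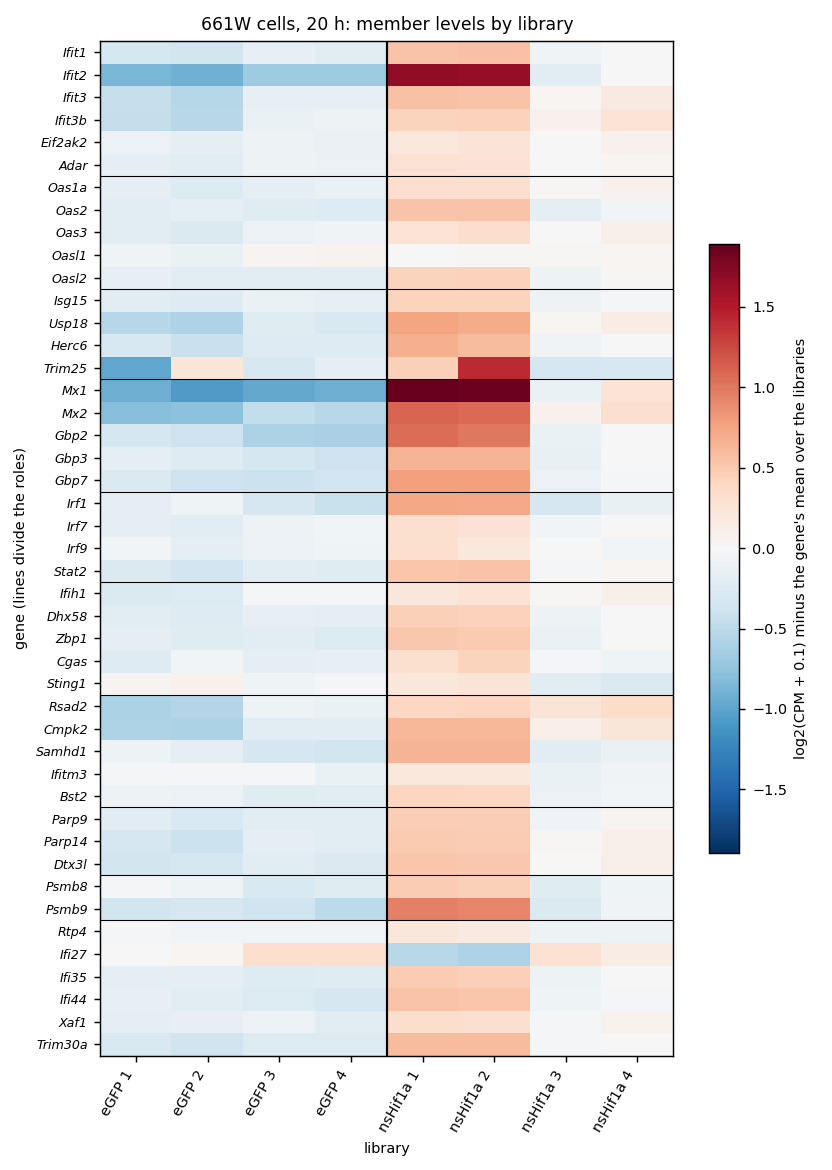
Level of the 45 genes (rows, grouped by role) in the 8 libraries of 661W cells (columns), as log2(CPM + 0.1) minus the mean of the gene over the 8 libraries; the vertical line divides eGFP from nsHif1a. The nsHif1a libraries 1 and 2 stand above the 6 other libraries for 43 of the 45 genes, and Trim25 rests on 0 to 6 counts. The share of all genes with this order was not determined.

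The size of the response differed between the replicate sets. In replicates 1 and 2, 33 of the 44 genes were upregulated (7.8% of all 16907 genes tested) and 1, *Ifi27*, was downregulated (3.99% of all genes). In replicates 3 and 4, 4 genes were upregulated, namely *Ifit2*, *Mx1*, *Mx2* and *Gbp2* (1.1% of all genes). The median log2FC was 0.71 and 0.17, respectively. Tested directly as an interaction of plasmid and set, the log2FC was lower in replicates 3 and 4 for 43 genes and higher for 1, *Ifi27*, whose negative log2FC came closer to 0 (adjusted *p*-value under 0.05, reached by 9.3% and 9.5% of all genes). The median of these differences was -0.55 on the log2 scale. The sets were recognized on these same libraries, so these tests describe the libraries at hand. Their spread is that within the close pairs, where the median squared difference was 1.47 to 1.62 times that expected from sampling noise. Calls, standard errors and *p*-values for a set or for the difference between sets therefore leave out the larger spread between the pairs. With the counts of each close pair summed to 1 library, 0 of all 18117 genes were called in the cells. Relative to all 4 eGFP libraries, *nsHif1a* libraries 3 and 4 were still higher for 33 of the 45 genes. The share of all genes for which this held was not determined. *Hif1a* itself showed the opposite order, with a log2FC of 3.02 in replicates 1 and 2 and 3.54 in replicates 3 and 4 (difference 0.52 ± 0.06 SE, adjusted *p* = 1.2e-06). How the sets were prepared was not given in the sources used here, and the part of this in the result was not tested.

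**Figure D2:**
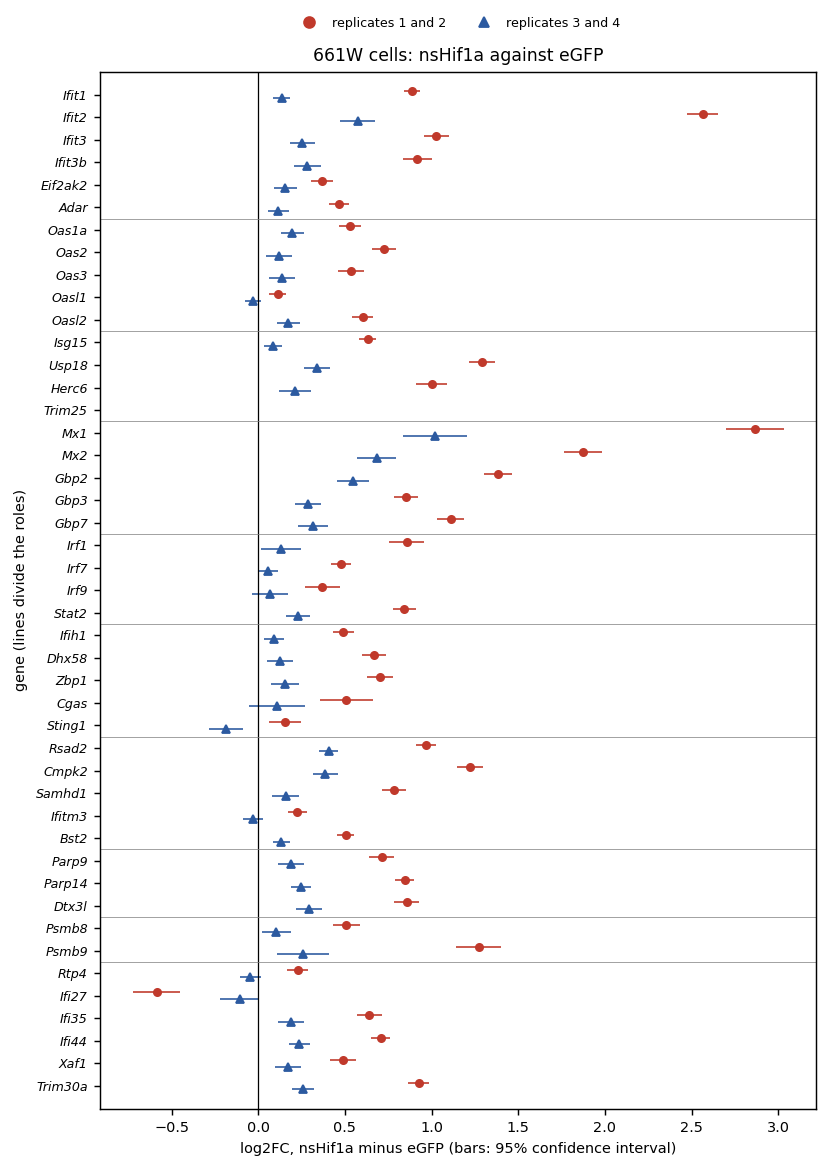
log2FC of nsHif1a against eGFP in 661W cells for replicates 1 and 2 (circles) and replicates 3 and 4 (triangles), with 95% confidence intervals from limma, for the 44 genes tested. For 43 genes the circle lies to the right of the triangle, and Ifi27 is the exception.

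The IFIT proteins bind viral RNA and block its translation. *Ifit2* had the second largest effect of the 45 genes in replicates 1 and 2. It was measured at 281, 273, 321 and 321 CPM with eGFP and 1649.5, 1631, 442 and 518 CPM with *nsHif1a*. All *nsHif1a* libraries were above all eGFP libraries, and libraries 1 and 2 stood far above 3 and 4. The log2FC was 2.56 in replicates 1 and 2 and 0.57 in replicates 3 and 4, and over all 8 libraries 1.64 ± 0.37 (SE, n = 4 per plasmid, adjusted *p* = 0.053 from limma), which missed the threshold. *Ifit3* was at 699, 644, 843 and 846 CPM with eGFP and 1377, 1369.6, 961 and 1058 CPM with *nsHif1a* (log2FC 0.66 ± 0.13, adjusted *p* = 0.039 from limma). Here eGFP libraries 3 and 4 were also above eGFP libraries 1 and 2. *Ifit3b*, its neighbor, had a log2FC of 0.61 ± 0.12. The transcripts of *Ifit3* share 31.5% of their 50-base words with those of *Ifit3b*, so the counts of these genes may not be independent. The same holds to a lesser degree for *Rtp4* (25.7%), *Trim30a* (17.4%) and *Oas1a* (15.7%), which share words with other annotated genes. *Ifit1* was at 886, 880.2, 1010.5 and 979.7 CPM with eGFP and 1636, 1641, 1068 and 1122 CPM with *nsHif1a*, with a log2FC of 0.89 in replicates 1 and 2 and 0.13 in replicates 3 and 4. *Eif2ak2*, which encodes the RNA-activated kinase PKR, and *Adar* had smaller effects in replicates 1 and 2 (0.37 and 0.47) that stayed below the fold threshold.

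The 2-5A synthetases make oligoadenylates that activate RNase L upon contact with double-stranded RNA. None of the 5 was called over all 8 cell libraries by limma, edgeR or DESeq2, with unadjusted *p*-values under 0.05 for 4 in limma, whereas *Oas1a*, *Oas2*, *Oas3* and *Oasl2* were upregulated in replicates 1 and 2 (log2FC 0.53, 0.73, 0.53 and 0.60). *Oas2* illustrates the pattern, with 213, 217, 211 and 208 CPM with eGFP and 357, 356, 219 and 237 CPM with *nsHif1a*. Libraries 3 and 4 of *nsHif1a* were barely above the controls. *Oasl1*, whose product lacks synthetase activity and restrains *Irf7* translation, had the smallest positive effect in replicates 1 and 2 (0.11), and its groups overlapped (695, 678, 765 and 773 CPM against 738, 749.7, 746 and 759 CPM).

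ISG15 is attached to proteins by HERC6 and other ligases and removed by USP18, which also blocks signaling at the receptor. *Usp18* was at 198, 191, 245 and 235 CPM with eGFP and 482, 468, 294 and 315 CPM with *nsHif1a*. Its groups did not overlap, and the log2FC was 0.84 ± 0.16 (adjusted *p* = 0.032 from limma). *Isg15* itself was at 789, 766, 824 and 811 CPM with eGFP and 1206, 1210.3, 845 and 891 CPM with *nsHif1a*, so that *nsHif1a* library 3 lay close to the highest eGFP library. Its log2FC was 0.63 in replicates 1 and 2 and 0.08 in replicates 3 and 4. *Herc6* was upregulated in replicates 1 and 2, and its log2FC in replicates 3 and 4 was 0.21.

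The interferon-induced GTPases included the largest effects. *Mx1* encodes a dynamin-like GTPase that traps viral nucleocapsids. It was measured at 67.7, 60.7, 65.4 and 67.4 CPM with eGFP and 476, 463, 118 and 154 CPM with *nsHif1a*. The control libraries were nearly equal, and the *nsHif1a* libraries split into a high pair and a low pair. The log2FC was 2.01 ± 0.39 over all libraries (adjusted *p* = 0.035 from limma), 2.87 in replicates 1 and 2 and 1.02 in replicates 3 and 4. *Mx2* was at 106, 108, 134 and 129 CPM with eGFP and 397, 390.4, 196 and 229 CPM with *nsHif1a* (log2FC 1.31 ± 0.20, adjusted *p* = 0.014 from limma). *Mx1* and *Mx2* lie side by side on chromosome 16. *Gbp2*, *Gbp3* and *Gbp7* encode guanylate-binding proteins, which attack vacuoles of intracellular pathogens, and form a cluster on chromosome 3. All 3 had non-overlapping groups without being called over the 8 libraries (log2FC 1.01, 0.60 and 0.75, lowest adjusted *p* = 0.058 from limma), and all 3 were upregulated in replicates 1 and 2. *Gbp2* was upregulated in both sets (1.39 in replicates 1 and 2 and 0.55 in replicates 3 and 4).

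Among the transcription factors, *Stat2* was upregulated over all libraries, with 277, 259.7, 288 and 283 CPM with eGFP and 481, 484, 328 and 343 CPM with *nsHif1a* and a log2FC of 0.56 ± 0.12 (adjusted *p* = 0.043 from limma). Its groups did not overlap. *Irf1*, which responds mainly to interferon γ, was at 96.8, 104, 88.3 and 81.6 CPM with eGFP and 182, 181, 88.1 and 98.9 CPM with *nsHif1a*. Libraries 1 and 2 of *nsHif1a* were at about the same level and clearly the highest, while 3 and 4 fell within the controls. *Irf7*, the factor that amplifies interferon α transcription, and *Irf9* had a log2FC of 0.48 and 0.37 in replicates 1 and 2, below the fold threshold.

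The nucleic acid sensors of the list bind RNA or DNA in the cytosol. None of *Ifih1* (MDA5), *Dhx58* (LGP2), *Zbp1*, *Cgas* and *Sting1* was called over the 8 cell libraries by limma, edgeR or DESeq2, although 4 of the 5 had an unadjusted *p*-value under 0.05 in limma. In replicates 1 and 2, *Dhx58* was upregulated (0.67) and *Ifih1* stayed below the fold threshold (0.49). *Zbp1*, a sensor of Z-form nucleic acids, had the largest effect in replicates 1 and 2 (0.70 ± 0.04) at 240.2, 235, 239.7 and 229.8 CPM with eGFP and 389, 387, 251 and 274 CPM with *nsHif1a*. *Cgas* was at 27.3, 31.1, 28.6 and 28.9 CPM with eGFP and 39.9, 43.2, 31.6 and 30.5 CPM with *nsHif1a*, and its groups overlapped, with *nsHif1a* library 4 below eGFP library 2. It was upregulated in replicates 1 and 2 (0.51 ± 0.07), and its log2FC in replicates 3 and 4 was 0.11 ± 0.08. *Sting1*, the adaptor downstream of cGAS, was at 87.9, 90.1, 80.0 and 84.0 CPM with eGFP and 98.4, 100.2, 73.5 and 70.4 CPM with *nsHif1a*. It was the lowest in *nsHif1a* libraries 3 and 4, with a log2FC of 0.15 in replicates 1 and 2 and -0.19 in replicates 3 and 4. The adjusted *p*-values from limma were 0.0098 and 0.021, and both effects were below the fold threshold. The sets differed in sign for this gene (difference -0.34 ± 0.06, adjusted *p* = 0.00071).

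*Rsad2* and *Cmpk2*, which share a locus on chromosome 12, make viperin and a mitochondrial nucleotide kinase that together supply a chain-terminating nucleotide. *Rsad2* was at 642, 658, 907 and 884 CPM with eGFP and 1269, 1282, 1149 and 1232 CPM with *nsHif1a*. In contrast to most of the genes, replicates 3 and 4 approached 1 and 2 with *nsHif1a*. For this gene eGFP libraries 3 and 4 were also above eGFP libraries 1 and 2, an order found for 23 of the 45 genes. The share of all genes with this order was not determined. The log2FC was 0.69 ± 0.13 (adjusted *p* = 0.032 from limma), and that of *Cmpk2* was 0.82 ± 0.14 (adjusted *p* = 0.023). *Samhd1*, which depletes deoxynucleotides, and *Bst2* were upregulated in replicates 1 and 2 (0.78 and 0.51), and *Ifitm3* was not (0.23). *Parp14* and *Dtx3l*, which act in ADP-ribosylation and in ubiquitination with PARP9, were upregulated over all libraries (0.56 ± 0.10 and 0.59 ± 0.11), and *Parp9* stayed below the fold threshold (0.47 ± 0.10). The immunoproteasome subunit gene *Psmb9* was at 39.9, 40.6, 38.8 and 36.04 CPM with eGFP and 98.1, 96.7, 41.8 and 48.6 CPM with *nsHif1a*, highest in *nsHif1a* libraries 1 and 2, and *Psmb8* had a log2FC of 0.51 in replicates 1 and 2 and 0.11 in replicates 3 and 4. Of the other genes, *Trim30a*, a negative regulator of Toll-like receptor signaling, was upregulated (0.62 ± 0.13). *Ifi35* and *Ifi44* were upregulated in replicates 1 and 2 (0.64 and 0.71), while *Xaf1* and *Rtp4* stayed below the fold threshold (0.49 and 0.23). *Ifi27* was the 1 gene with a log2FC below 0 in replicates 1 and 2. It was at 50.9, 52.2, 63.5 and 63.1 CPM with eGFP and 35.1, 33.7, 61.6 and 56.1 CPM with *nsHif1a*, lowest in *nsHif1a* libraries 1 and 2 and overlapping otherwise (log2FC -0.59 in replicates 1 and 2 and -0.11 in replicates 3 and 4).

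**Figure D3:**
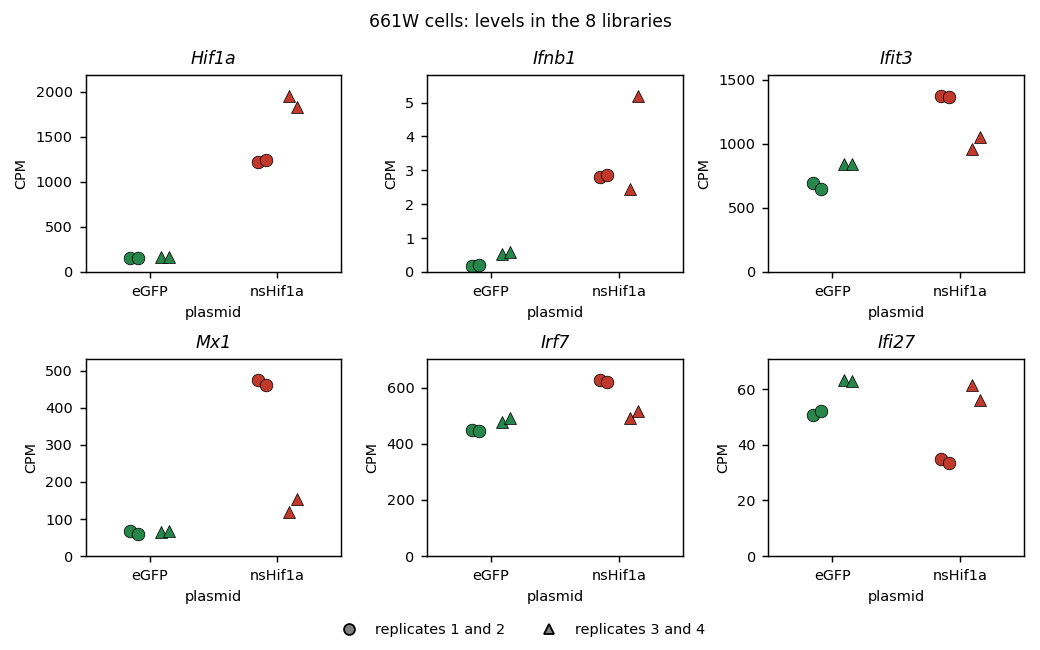
CPM of Hif1a, of the interferon gene Ifnb1 and of 4 of the 45 genes in each of the 8 libraries of 661W cells, by plasmid, with circles for replicates 1 and 2 and triangles for replicates 3 and 4. Hif1a is highest in the triangles of nsHif1a, and Ifit3, Mx1 and Irf7 are highest in the circles of nsHif1a.

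Transcripts of interferons themselves were detected in the cells. *Ifnb1*, the gene of interferon β, had 3, 3, 9 and 8 counts with eGFP and 50, 41, 42 and 88 counts with *nsHif1a*. It was higher in every *nsHif1a* library, was upregulated over all 8 (log2FC 3.16 ± 0.43, adjusted *p* = 0.0076 from limma, and 0.012 with the replicate block) and in both sets (3.72 in replicates 1 and 2 and 2.60 in replicates 3 and 4). The difference between the sets was -1.11 ± 0.82 and was not called at these low counts (adjusted *p* = 0.41, limma). *Ifna4* had 1, 0, 0 and 0 counts with eGFP and 22, 20, 6 and 15 with *nsHif1a*. It was filtered out over the 8 libraries, and in the fit by sets its log2FC was 4.63 in replicates 1 and 2 and 4.15 in replicates 3 and 4. These counts are low, and the fold changes depend on them. Both genes reached the minimum count of 10 only in *nsHif1a* libraries. Passing the filter thus favored an upward call, and the calls of these genes are no independent support. Of the 12 interferon genes listed, the other 10 were not tested in the cells.

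The genes around this pathway moved with the 45 to different degrees. None of the 6 receptor subunit genes was called in the cells by limma in either set. Over the 8 libraries, 0 had an unadjusted *p*-value under 0.05 in limma. Of the 6, 1, *Ifngr2*, had a lower log2FC in replicates 3 and 4 (difference -0.44 ± 0.11). Its adjusted *p*-value was under 0.05 in limma, which 9.3% of all genes reached in this direction. Of 16 sensors and adaptors, *Tlr3* (0.85 ± 0.17), the endosomal receptor of double-stranded RNA, and *Ifi203* (0.52 ± 0.08) were upregulated over all libraries (1.21% of all genes). In replicates 1 and 2, 5 of the 16 were upregulated (7.8% of all genes) and 1, *Tlr9*, was downregulated (3.99%). *Nlrc5*, the activator of MHC class I genes, was upregulated as well (0.56 ± 0.11, adjusted *p* = 0.040 from limma). With the block *Tlr3*, *Ifi203* and *Nlrc5* had adjusted *p*-values of 0.11, 0.054 and 0.13, and none was called. Of 10 negative regulators listed, 8 had a log2FC above 0 over the 8 libraries and 1 was upregulated (1.21% of all genes). In replicates 1 and 2, 4 of the 10 were upregulated (7.8%), and in replicates 3 and 4, 1 was (1.1%). The gene called over the 8 libraries was *Tnfaip3*, a feedback inhibitor of NF-κB. *Tnfaip3* rose in both sets (1.14 in replicates 1 and 2 and 0.70 in replicates 3 and 4) and kept its call with the block. Of 41 further interferon-stimulated genes, 40 were tested and all 40 had a log2FC above 0 over the 8 libraries. Of these, 9 were upregulated over all libraries (1.21% of all genes tested) and 32 in replicates 1 and 2 (7.8%). In replicates 3 and 4, 1, *Gbp5*, was upregulated (1.1% of all genes). With the block, 1 of the 40, again *Gbp5*, was upregulated (0.551% of all genes).

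In the retina, none of the 42 genes tested was called (1.08% of all 18859 genes were upregulated and 0.912% downregulated). *Mx1*, *Oas3* and *Cgas* did not pass the filter on low counts. An unadjusted *p*-value under 0.05 was found for 1 of the 42, *Samhd1*, and edgeR and DESeq2 called none either. The groups overlapped for all 45 genes, whereas 3.25% of all genes tested were apart in the upward and 2.69% in the downward direction. The median log2FC was 0.24 with limma, with 29 genes above 0, but -0.29 with both edgeR and DESeq2, with 12 above 0, so no direction can be given for the list. It was 0.93 without AAV::eGFP library 1, 0.82 without library 2 and -0.12 to -0.29 without library 3, 4 or 5 (limma). The retinas varied widely. The summed level of the 45 genes was 1903, 1327, 394, 376 and 404 CPM in AAV::eGFP libraries 1 to 5 and 442, 601, 569, 742 and 1248 CPM in AAV::*nsHif1a* libraries 1 to 5. AAV::eGFP libraries 1 and 2 were above AAV::eGFP libraries 3, 4 and 5 for all 45 genes and above all 8 other retinas for 30. AAV::*nsHif1a* library 5 was the highest of its group for 41 genes and library 1 the lowest for 38. The shares of all genes with these orders of libraries were not determined.

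**Figure D4:**
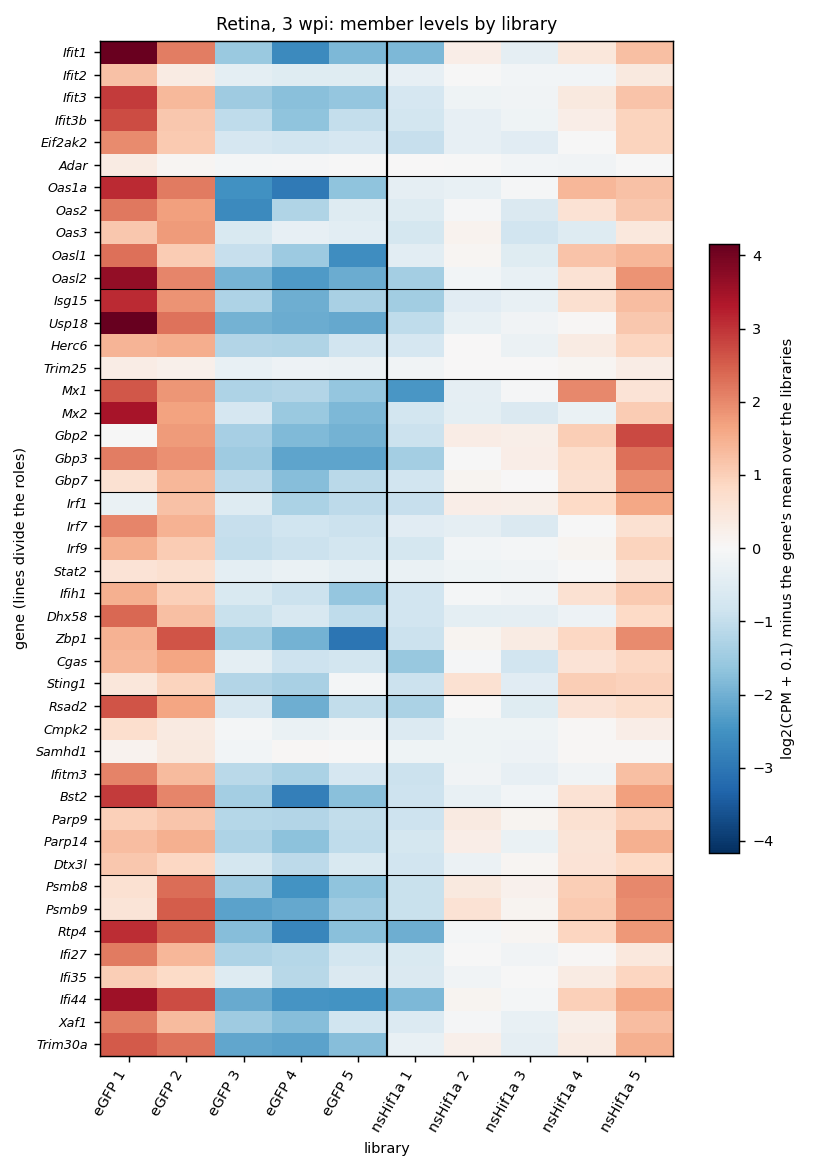
Level of the 45 genes (rows, grouped by role) in the 10 retinas at 3 wpi (columns), as log2(CPM + 0.1) minus the mean of the gene over the 10 libraries; the vertical line divides AAV::eGFP from AAV::nsHif1a. AAV::eGFP libraries 1 and 2 are above AAV::eGFP libraries 3, 4 and 5 for all 45 genes, and all 5 AAV::nsHif1a libraries are above these 3 for 25. The shares of all genes with these orders were not determined.

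The antiviral genes show the spread most clearly. *Ifit1* was measured at 134, 33.98, 2.54, 1.123 and 2.03 CPM with AAV::eGFP and 2.02, 9.32, 5.89, 10.7 and 18.4 CPM with AAV::*nsHif1a*. The first 2 controls were far above all other retinas, and the other 3 controls were near the lowest AAV::*nsHif1a* retina. The resulting log2FC was 0.18 ± 1.11 (SE, n = 5 per vector, adjusted *p* = 0.95 from limma), but -1.89 with edgeR and -1.91 with DESeq2. *Oasl2* was at 162, 52.3, 3.28, 2.44 and 3.01 CPM with AAV::eGFP and 4.80, 11.97, 10.2, 19.6 and 47.4 CPM with AAV::*nsHif1a*. *Usp18* was at 36.7, 9.75, 0.433, 0.396 and 0.376 CPM with AAV::eGFP and 0.8997, 1.57, 1.77, 2.05 and 4.36 CPM with AAV::*nsHif1a*. In both, AAV::eGFP library 1 was the highest and AAV::eGFP libraries 3, 4 and 5 were below all other retinas. *Isg15*, at 26.5, 11.3, 1.18, 0.661 and 1.13 CPM with AAV::eGFP and 1.05, 2.14, 2.41, 4.91 and 7.57 CPM with AAV::*nsHif1a*, also had AAV::eGFP libraries 1 and 2 on top. *Irf7* was at 80.3, 54.2, 10.1, 11.2 and 10.7 CPM with AAV::eGFP and 14.2, 15.2, 12.98, 19.5 and 30.4 CPM with AAV::*nsHif1a*, with the same 2 libraries highest. *Bst2*, *Ifi44* and *Rtp4*, a Golgi chaperone for receptors, had log2FC values of 0.51 ± 0.92, 0.61 ± 1.13 and 0.47 ± 1.05 in limma but -0.80, -1.36 and -0.97 in edgeR, so their direction depended on the test.

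A smaller number of genes were ordered differently. For 14 of the 45, AAV::eGFP library 2 was above library 1, and for 5 (*Irf1*, *Gbp2*, *Gbp3*, *Gbp7* and *Trim25*) the highest of all retinas was AAV::*nsHif1a* library 5. *Gbp2* was at 17.04, 59.9, 6.62, 4.76 and 4.37 CPM with AAV::eGFP and 9.30, 21.7, 20.5, 35.5 and 117 CPM with AAV::*nsHif1a*. *Irf1* was at 14.5, 41.3, 12.1, 6.94 and 8.28 CPM with AAV::eGFP and 8.92, 21.2, 20.9, 30.95 and 53.6 CPM with AAV::*nsHif1a*. In both, AAV::*nsHif1a* library 5 was the highest, and AAV::eGFP library 1 lay below 4 of the 5 AAV::*nsHif1a* retinas. The immunoproteasome genes *Psmb8* and *Psmb9*, which lie in the MHC region of chromosome 17, also had AAV::eGFP library 2 above library 1 (46.4 against 14.4 CPM and 30.8 against 7.72 CPM). *Gbp2* had the largest log2FC of the 42 genes tested in the retina with limma (1.41 ± 0.71, adjusted *p* = 0.27), edgeR (1.14) and DESeq2 (1.14). *Zbp1*, *Psmb9* and *Psmb8* followed in limma (1.35, 1.23 and 1.19), but had -0.15, 0.17 and 0.30 in edgeR. *Adar*, *Trim25* and *Samhd1* varied the least between retinas. *Adar* and *Samhd1* lay at 109 to 152 CPM and 32.6 to 50.8 CPM over the 10 retinas. *Samhd1* had the lowest adjusted *p*-value of the list (0.18, log2FC -0.22 ± 0.09). The DNA-sensing genes were low, with 0 to 0.840 CPM for *Cgas* and 0.727 to 4.23 CPM for *Sting1*.

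The comparison of vectors turned on which controls were kept. Among the 7 retinas with *Xist* counts, that is AAV::eGFP libraries 1 and 2 against all 5 AAV::*nsHif1a*, all 45 genes were tested and all 45 had a log2FC below 0 (median -1.71). Of these, 16 were downregulated, compared with 0.381% of all genes tested. *Irf7* (-1.97, adjusted *p* = 0.013 from limma), *Trim30a* (-2.23, 0.014) and *Ifi27* (-1.82, 0.016) had the lowest adjusted *p*-values. With the *Xist* class as a covariate over the 10 libraries, all 42 tested were below 0 and 10 were downregulated (0.493% of all genes). Without AAV::eGFP libraries 1 and 2, which were left out after seeing their values, 40 of 42 genes were above 0 (median 1.37) and 7 were upregulated, compared with 1.91% of all genes. These were *Ifit3* (1.65), *Oas1a* (2.96), *Usp18* (2.08), *Zbp1* (3.04), *Parp9* (1.39), *Ifi27* (0.98) and *Trim30a* (2.32). *Oas1a*, *Trim30a* and *Ifi27* were thus called in opposite directions under the 2 choices. In the 3 retinas without *Xist* counts there was no AAV::*nsHif1a* library, so no comparison can be made within that class, and within the AAV::eGFP group the *Xist* class and the level of these genes cannot be told apart.

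**Figure D5:**
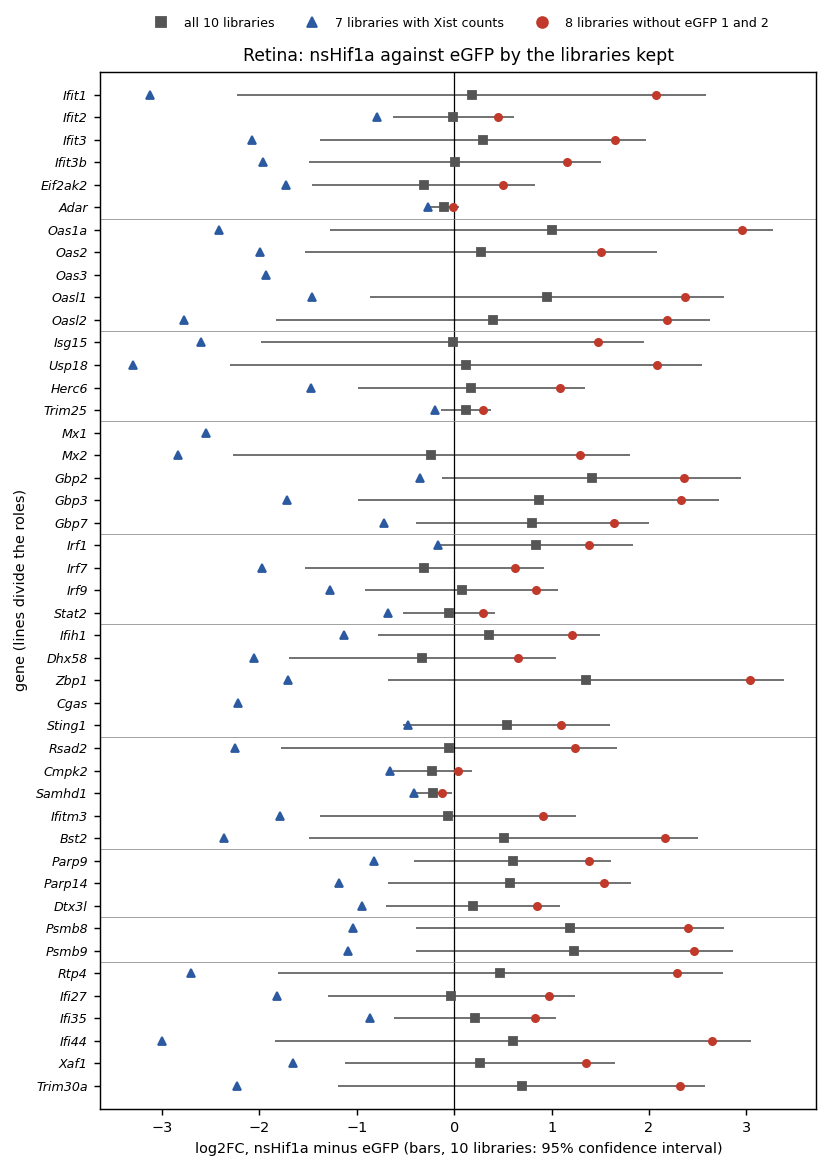
log2FC of AAV::nsHif1a against AAV::eGFP for the 42 genes tested with all 10 retinas (squares, with 95% confidence intervals from limma), for all 45 with the 7 retinas that hold Xist counts (triangles) and for 42 without AAV::eGFP libraries 1 and 2 (circles). The triangles are all below 0 and 40 of 42 circles are above 0.

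Markers of immune cells moved with some of these libraries. The 8 markers of macrophages and monocytes summed to 28.7, 274, 18.8, 10.2 and 29.96 CPM in AAV::eGFP libraries 1 to 5 and to 59.8, 149, 93.4, 173 and 192 CPM in AAV::*nsHif1a* libraries 1 to 5. Thus AAV::eGFP library 1, the highest for 29 of the 45 genes, had a summed level close to that of AAV::eGFP library 5, while library 2 had the highest sum. *Cd74* made up much of these sums, and 5 of the 8 markers (*Adgre1*, *Cd68*, *Ccr2*, *Ly6c2* and *H2-Ab1*) were higher in library 1 than in library 5. The 11 microglial markers, none of which was at 0, summed to 146, 265, 75.7, 60.4 and 95.1 CPM and to 94.8, 182, 152, 235 and 271 CPM. In limma, the 7 macrophage and monocyte markers tested were all above 0 with AAV::*nsHif1a* (median log2FC 1.21), and 1 was upregulated (1.08% of all genes). All 11 microglial markers were above 0 as well (median 1.10), and none was called. With the replicate block the medians were 0.68 and 0.44, and none of either list was called. The 8 markers of T, NK and B cells summed to 1.22, 9.95, 1.61, 1.19 and 1.73 CPM with AAV::eGFP and to 2.10, 4.98, 2.62, 5.45 and 2.24 CPM with AAV::*nsHif1a*. AAV::eGFP library 2 thus had the highest sum for the T, NK and B cell markers, at low counts, as for those of macrophages and monocytes. The microglial sum was highest in AAV::*nsHif1a* library 5. In bulk retina, more cells of a type and more RNA per cell cannot be told apart, and the part of these cells in the levels was not tested. Rod markers summed to 43935 to 48648 CPM with AAV::eGFP and 34305 to 45646 CPM with AAV::*nsHif1a*. Lens markers summed to 634 to 2816.5 CPM with AAV::eGFP and 920 to 18955.5 CPM with AAV::*nsHif1a*. Markers of the retinal pigment epithelium summed to 386 to 875 CPM and 367 to 965 CPM, respectively. The part of lens or pigment epithelium tissue in the levels was not tested. No interferon gene was tested in the retina, *Ifnb1* and *Ifna4* were at 0 counts in all 10 libraries, which allows up to 0.233 CPM at 3 counts, and *Ifng* did not exceed 1 count. *Stat3* (log2FC 0.69 ± 0.13, adjusted *p* = 0.0081 from limma) and its inhibitor *Socs3* (1.18 ± 0.26, 0.021), which belong to cytokine signaling more widely, were upregulated with AAV::*nsHif1a*. *Socs3* was at 5.73, 9.69, 6.93, 4.23 and 9.79 CPM with AAV::eGFP and 10.5, 17.8, 13.6, 15.1 and 26.4 CPM with AAV::*nsHif1a*, and its groups did not overlap.

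Finally, the effects in retina and cells were compared directly over all 18 libraries. No member of the list passed an adjusted *p*-value of 0.05 in limma (1.08% of all 20999 genes had a higher and 1.25% a lower effect in the retina). The median difference was -0.11 on the log2 scale with limma, -0.95 with edgeR and -0.98 with DESeq2, and 26 genes were below 0 with limma and 42 with either of the others. In limma 4 genes had an unadjusted *p*-value under 0.05. edgeR called 1 gene (275 of all genes) and DESeq2 4 (556 of all genes) with the lower effect in the retina. *Adar* (-0.38 ± 0.10, adjusted *p* = 0.055) and *Cmpk2* (-0.99 ± 0.27, 0.056) came closest in limma. For genes such as *Ifit1* the standard error of this difference (1.002) was larger than the effect in the cells (0.54), so a difference of that size was not detectable. Outside the list, *Tnfaip3* had a lower effect in the retina (-0.97 ± 0.14, adjusted *p* = 0.0020 from limma). The 2 experiments also differed in promoter, cell type, exposure time and route of delivery, and the share of each in a difference was not tested.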

How the data were processed

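The authors prepared stranded mRNA libraries, aligned the reads to GRCm39 with Rsubread and deposited raw counts per GENCODE gene from featureCounts, read on the antisense strand, for 10 retinas and 8 cultures of 661W cells. All 18 libraries were used. From these counts, library sizes were scaled by TMM (edgeR 4.0.16), genes were filtered with filterByExpr at a minimum count of 10, and each comparison was fitted across all genes with limma 3.58.1 (voom with sample quality weights, R 4.3.3). A gene was called at a Benjamini-Hochberg adjusted *p*-value under 0.05 and a log2FC beyond 0.5, and a difference between effects at an adjusted *p*-value under 0.05. edgeR's quasi-likelihood test, DESeq2 1.42.0, other scalings, filters and covariates and left-out libraries were tried as alternatives. RPKM values were computed from merged exon lengths.

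The 45 genes and all gene lists were chosen with earlier results of these data known. Genes named in the text are these 45 and genes of the listed interferon pathway and marker sets, beside *Hif1a*, *Xist*, *Egln1* and the neighbors of *Trim25*. The labels give the same replicate numbers to both plasmids. In the cells, deviations from the group means of libraries with the same number correlated with *r* of 0.227 to 0.269 for all 4 numbers. Libraries with the same number also belong to the same replicate set, and libraries with unlike numbers were not compared. This *r* therefore cannot tell a pairing by number from a difference between the sets. The number was used as a block, and the fit with this block is given beside results it changed. Nothing in the labels says that the replicates came from separate cultures or animals, so the *p*-values measure the spread between these libraries. Near-identical genes may share reads. On simulated counts, 98 percent of genes changed by 1 on the log2 scale were called in the cells and 65 percent for the comparison of retina with cells. The simulated libraries were drawn independently, and the changed genes had high counts. They held neither the close pairs of the cells nor the wide spread of these genes between retinas. These percentages may therefore not hold for the 45 genes. The counting floor was 3 counts and covers counting error only. 1 gene of the listed pathway sets is not reported here.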

Additional observations from a re-analysis of the deposited data

Results flagged for a closer look

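*Mx2* in the retina was flagged because AAV::*nsHif1a* library 5, at 2.95 CPM, stood apart from the other 4 AAV::*nsHif1a* libraries at 0.750, 1.01, 0.851 and 1.09 CPM. Its gap to the nearest library was 0.736 of the range of the group on the scale of log2(CPM + 0.1). *Ifitm3* in 661W cells was flagged because eGFP library 4, at 666 CPM, lay below the other 3 eGFP libraries at 714, 706 and 709 CPM, with a gap of 0.838 of the range on the same scale. These were 2 of 180 combinations of gene and group (1.11%), while chance flags about 1 in 20. The 44 genes tested in the cells all had a different effect of *nsHif1a* in replicates 1 and 2 and in replicates 3 and 4 (adjusted *p*-value under 0.05 for the interaction, limma), 43 with the lower log2FC in replicates 3 and 4. The sets were recognized on these libraries, and what distinguishes them was not tested.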

How the results depend on the processing

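In 661W cells, the 11 upregulated genes became 19 with DESeq2, 6 with voom without sample quality weights, 0 with the replicate block, 19 with the replicate set as a covariate, and 0 after each of the close pairs of libraries had been summed to 1, where 0 of all 18117 genes were called. They became 6 without *nsHif1a* libraries 1 and 2, 4 with replicates 3 and 4 alone and 33, beside 1 downregulated, with replicates 1 and 2 alone. The summed pairs and these last 3 choices were added after seeing the data. Leaving out 1 library in turn gave 0 to 31 upregulated and 0 to 1 downregulated genes. In replicates 3 and 4, 32 genes were called higher and 1 lower without the fold threshold, and 2 to 4 higher with 1 library left out. For replicates 1 and 2, leave-one-out fits gave 30 to 33 upregulated genes, and for the difference between sets 42 to 43 lower. With the replicate block, the sets gave 33 and 4 upregulated genes and 43 with a lower log2FC in replicates 3 and 4. In the retina, 10 genes were downregulated with the *Xist* class as a covariate and 16 with *Xist*-positive libraries alone, and 7 were upregulated without AAV::eGFP libraries 1 and 2, the latter chosen after the data were seen. No left-out single library gave a call.

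With *Xist*-positive libraries alone, the log2FC turned to -2.41 for *Oas1a*, -1.996 for *Oas2*, -1.27 for *Irf9*, -2.70 for *Rtp4*, -2.37 for *Bst2*, -3.00 for *Ifi44*, -1.66 for *Xaf1*, -2.23 for *Trim30a* and -1.47 for *Herc6*. With the *Xist* covariate it turned to -1.28 for *Irf9*, -2.24 for *Trim30a* and -1.48 for *Herc6*, and without AAV::eGFP libraries 1 and 2 to 0.98 for *Ifi27*. The cause of these changes was not tested. For the retina against the cells, 1 gene had a lower effect in the retina with edgeR, 4 with DESeq2, 1 at a minimum count of 30, 1 with the replicate block in the cells, and 0 to 5 with 1 library left out. In the retina, libraries with the same number correlated with *r* of -0.148 to 0.138, so they share only a number. The replicate block called none there and gave a median log2FC of -0.34. Low counts limit *Cgas*, *Mx1* and *Oas3* in the retina and *Trim25* in the cells.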

Other observations

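*Trim25*, whose product attaches ubiquitin to RIG-I, was the 1 gene of the 45 that was nearly without counts in 661W cells. Its 0 to 6 counts per library compared with 308 to 399 for the neighboring gene *Coil* and 537 to 772 for *Dgke*, between which it lies on chromosome 11 (GRCm39, chr11:88890202-88911122). In the retina the 3 genes had 337 to 585, 192 to 294 and 3329 to 4424 counts, respectively. This observation was chosen after the values were seen.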
